A study of Mus musculus with 8 samples.

Results

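The genes described here encode the elastic fibre and the microfibril, namely elastin (Eln), the fibrillins (Fbn1, Fbn2), the microfibril-associated glycoproteins (Mfap2, Mfap4, Mfap5), the fibulins (Fbln1, Fbln2, Fbln5) and Emilin1. They were selected on gene symbol after the knockout against control differences of these arrays, that of Mfap5 among them, were already known. The differences between the genotypes are therefore given as a description, and the adjusted p-values printed for members only say where each stands in the fit over all probes. Of the 10 genes, 9 had a probe, out of 16593 genes on the array, with 15 of its 25697 probes, and Fbn1 is not analysed here because no probe carried its symbol.

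The cells were primary hepatic stellate cells, the vitamin A storing pericytes of the liver, harvested before any passage from B6/129 mice aged 6 weeks and grown in medium with 20% serum. IL15Ra-knockout cultures (4 samples) were set against control cultures from wild-type animals (4 samples), where IL15Ra is the subunit of the interleukin-15 receptor that binds the cytokine, and each sample was hybridised to 1 Illumina bead array. The series asks whether this receptor chain governs the fibrogenic capacity of the cells. Whether each sample stands for its own animal is not given in the labels, and p-values therefore cover only sample-to-sample spread, which may be technical. The labels name no other difference between the groups, and the mice were purchased as knockouts, with no promoter or cell type named for the loss.

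An elastic fibre is built on a scaffold of microfibrils, bundles of fibrillin onto which tropoelastin, the soluble product of Eln, is laid down and cross-linked by lysyl oxidases. Mfap2 and Mfap5 are small glycoproteins that sit on fibrillin, fibulins bridge elastin to the microfibril or to the basement membrane, and Emilin1 lies at the border between the elastin core and the microfibril. In liver, elastic fibres are found around portal tracts and vessels and accumulate in fibrotic scars, where stellate cells and portal fibroblasts are both known to make them.

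The arrays differed in how many probes they detected. Between 7765 and 10516 probes were above background on the knockout arrays and between 6760 and 9961 on the control arrays (two-sided exact permutation p = 0.914, with 0.0286 the smallest p that 4 against 4 allows), where a detection p under 0.05 against the array's own negative-control beads counts as above background. Knockout 1 and 4 and control 3 had the fewest, and these 3 arrays lay apart from the other 5 along the main axis of variation (principal component 1, 78.2% of the variance). Some cell type marker sums also differed between these sets of arrays, as given below. Whether array quality or the make-up of the cultures set them apart was not tested. None of the 4 Il15ra probes was above background on any array (mean 4.69 ± 0.03 in knockout and 4.70 ± 0.03 in control arrays, SD, n = 4 each), so the targeted gene checks no label. Although the mice are labelled female, the Y-linked genes Eif2s3y, Kdm5d and Uty were above background on all 8 arrays and neither of 2 Xist probes was on any.

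The label of the cells was checked against markers. Of 13 stellate cell markers with a probe, 6 were above background on at least 4 arrays, among them Reln, Des and Hgf, and 7 were above background on no array, namely Lrat, Ngfr, Gfap, Lhx2, Hand2, Vipr1 and Pth1r. Of 11 mesothelial markers 10 were above background on at least 4 arrays, as were 9 of 10 macrophage markers, and the macrophage genes Adgre1 and Lyz2 averaged between 13.66 and 13.83 on the log2 scale in both groups. The cultures were thus mixed, every value below is for a whole culture, and fewer cells of a type cannot be told apart from less RNA per cell.

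Of the 15 member probes, 9 probes of 7 genes were above background on at least 4 of the 8 arrays and entered the fit, and 5 of these were above background on all 8. Mfap5 was the member with the clearest contrast, above background on every knockout array and on no control array. Mfap2, the other small fibrillin-binding glycoprotein, averaged 3.63-fold higher in the knockout arrays on its brighter probe. Fbln2 and Eln averaged 1.68-fold and 1.65-fold higher, but the arrays of the 2 groups overlapped for all 3 genes. On these probes the mean difference was smaller within the 3 arrays with the fewest detected probes, and within the other 5, than over all 8. Fbn2, Fbln1 and Emilin1 had small mean differences below 0, and Mfap4 and Fbln5 were at or near background.

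In the limma fit over the 9433 probes kept, 1 of the 9 member probes, that of Mfap5, had an adjusted p under 0.05. Over all probes kept 50 did so, which is 0.530%, and 22 did so with a higher knockout mean, which is 0.233%. The 4 knockout values lay above the 4 control values at 1 of the 9 member probes, against 3.12% of all probes kept, and below them at 0 of the 9, against 1.91%. By their brightest kept probe 4 of the 7 genes had a higher mean in knockout arrays, against 53.2% of all probes kept. The median log2 difference was 0.72 over the 7 genes and 0.03 over all probes kept. An unadjusted p under 0.05 (limma) was found at 3 of the 9 member probes and at 595 of all 9433 probes kept. Since this contrast was known when the genes were grouped, nothing is read from these counts. Mfap5 also passed the filter only through the knockout arrays, so that it had to differ once kept.

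**Figure D1:**
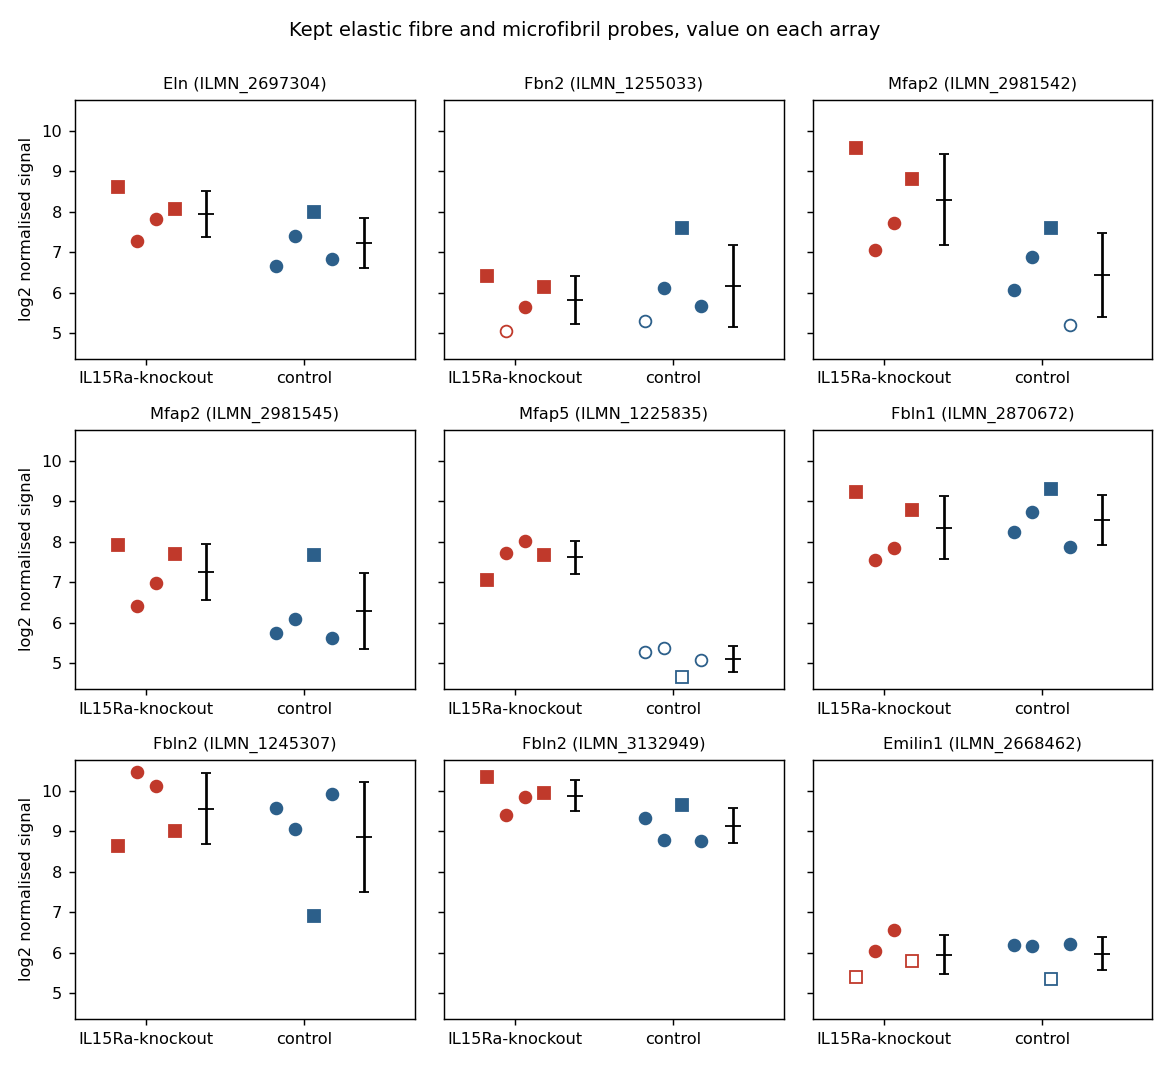
Log2 normalised signal of the 9 kept member probes on each array, with IL15Ra-knockout (red) left of control (blue). Filled symbols are above background and open symbols are not, squares mark knockout 1 and 4 and control 3, and bars give the mean ± SD of 4 arrays. Mfap5 is the panel in which the groups lie apart, and in the Mfap2, Eln, Fbn2 and Fbln1 panels the squares sit high within their own group.

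Mfap5 (chr6:122513584-122529290, GRCm38.p6), also known as MAGP-2, encodes a fibrillin-binding glycoprotein with an RGD motif that engages integrins. It had log2 values of 7.05, 7.73, 8.02 and 7.67 on knockout arrays 1 to 4, against 5.28, 5.38, 4.65 and 5.08 on control arrays 1 to 4. All 4 knockout values were above all 4 control values. The means were 7.62 ± 0.41 on knockout arrays and 5.10 ± 0.32 on control arrays (SD, n = 4 each), a log2 difference of 2.52 (standard error 0.31) with a 95% interval of 1.82 to 3.22 (limma adjusted p = 0.00826). Because no control array measured it above background, the fold is given as a bound, at least 3.55-fold higher in the knockout cultures. This bound is for the group means in this normalisation and carries no sampling error. The log2 difference was 1.24 on the authors' values, 1.20 without background correction and 1.75 with an offset of 50.

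The contrast for Mfap5 is less plain before normalisation. The deposited bead signals were 159.3, 324.7, 353.1 and 240.0 on the knockout arrays, against 138.6, 137.3, 114.6 and 157.2 on the control arrays, so that knockout 1 exceeded control 4 by little. The median signal of knockout 1 was 115.4 and that of control 4 was 149.8, and the lowest detection p of Mfap5 on a control array was 0.0702, against a highest of 0.00125 on a knockout array. In the authors' own quantile normalised table the intensities were 235.7, 316.1, 362.3 and 307.5 in knockout against 137.9, 141.5, 106.1 and 130.1 in control samples, with no overlap. The call was lost with median scaling (adjusted p = 0.0632) in place of quantile normalisation, where the log2 difference was 2.34.

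Because no control array measured Mfap5 above background, its differences within sets of arrays have no measured level on the control side. They were 2.63 on the log2 scale among knockout 2 and 3 and control 1, 2 and 4, and 2.71 between knockout 1 and 4 and the single array control 3, which allows no test. A fit on the 5 arrays without knockout 1, knockout 4 and control 3, normalised anew and added after the data were seen, gave Mfap5 an adjusted p of 0.00149 at a difference of 2.89 (log2), and in it 1 of the 9 member probes passed, against 1.78% of all probes. Mfap5 kept an adjusted p between 0.00620 and 0.0458 (limma) when each array was left out in turn. These fits reuse the values with which Mfap5 was grouped and kept, so their p-values are a description only.

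Mfap2 (chr4:141010424-141015976), or MAGP-1, is the widely expressed partner of Mfap5 on the microfibril and is known to bind fibrillin, tropoelastin and growth factors of the TGF-beta family. Its brighter probe had log2 values of 9.58, 7.07, 7.73 and 8.82 on knockout arrays 1 to 4, against 6.06, 6.89, 7.60 and 5.21 on control arrays 1 to 4. Control 3 was above knockout 2, and no other control array reached a knockout value. The mean was 8.30 ± 1.12 on knockout arrays and 6.44 ± 1.03 on control arrays (SD, n = 4 each), a log2 difference of 1.86 with a 95% interval of 0.36 to 3.36 and a limma adjusted p of 0.535.

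A second Mfap2 probe gave a smaller difference in the same direction. Its values were 7.92, 6.41, 6.97 and 7.70 on knockout arrays, against 5.74, 6.09, 7.67 and 5.63 on control arrays, a log2 difference of 0.97 (standard error 0.53) with an adjusted p of 0.913. Control 3 again lay among the knockout arrays, here above knockout 2 and 3. The third Mfap2 probe was above background on no array.

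The 3 arrays with the fewest detected probes carried much of the spread of Mfap2 inside each genotype. On the brighter probe knockout 1 and 4 averaged 1.80 log2 units above knockout 2 and 3, and control 3 lay 1.55 above the mean of the other controls. Within the 5 other arrays the genotypes differed by 1.35, and between knockout 1 and 4 and control 3 by 1.60. In a fit added after the data were seen, with each array's count of detected probes as a term, both kept Mfap2 probes had an adjusted p under 0.05 (0.00984 and 0.0153). That fit called 5 of the 9 member probes, namely those of Mfap5, Mfap2 and Fbln2, all with a higher knockout mean, and it called 670 of all probes, or 7.10%.

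Upstream sequence is shown for Mfap2, the microfibril gene with a pair of kept probes, both higher in mean on knockout arrays. The promoter table from RefSeq (GRCm38.p6) matched 6 of the 10 members, namely Fbn1, Mfap2, Fbln1, Fbln2, Fbln5 and Emilin1, and Eln, Fbn2, Mfap4 and Mfap5 are named only. The line gives the 250 bases before the annotated start of Mfap2, on the plus strand at chr4:141010174-141010423, and capitals mark a motif match named below.
Mfap2: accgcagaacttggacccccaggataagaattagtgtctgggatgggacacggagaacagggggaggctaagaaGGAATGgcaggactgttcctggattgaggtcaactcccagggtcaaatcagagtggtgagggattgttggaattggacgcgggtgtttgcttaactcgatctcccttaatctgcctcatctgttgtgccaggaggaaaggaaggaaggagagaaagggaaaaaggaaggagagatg

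Both strands of the Mfap2 window were searched for 4 motifs. The MCAT element bound by TEAD factors, GGAATG, was found 1 time and was present in 12.6% of all 32851 promoter windows of this length. The TATA box, searched as TATAAA, was found 0 times and was present in 12.4% of windows. The GC box, searched as GGGCGG, was found 0 times and was present in 32.7%. The AP-1 motif, searched as TGANTCA, was found 0 times and was present in 6.75%. None of these motifs overlaps another here, the G and C content was 51.2% against a median of 52.4% over all windows, and a match describes letters only.

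Eln (chr5:134702595-134747368), which encodes the elastomer of the fibre core, was above background on all 8 arrays. Its log2 values were 8.62, 7.27, 7.81 and 8.07 on knockout arrays, against 6.66, 7.41, 8.003 and 6.83 on control arrays. Control 2 and 3 lay within the range of the knockout arrays. The mean was 7.94 ± 0.56 on knockout arrays and 7.23 ± 0.61 on control arrays (SD, n = 4 each), a log2 difference of 0.72 with a 95% interval of -0.22 to 1.66 and an adjusted p of 0.913. A difference of this size was not resolved from the spread between arrays.

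Fbn2, a fibrillin best known from the embryo and from regenerating tissue, was dim, above background on 3 knockout and 3 control arrays. It had log2 values of 6.40, 5.05, 5.65 and 6.15 on knockout arrays, against 5.29, 6.11, 7.59 and 5.67 on control arrays. The highest value was that of control 3, and the groups overlapped throughout. The log2 difference was -0.35 with a 95% interval of -1.53 to 0.82, and without control 3 it was 0.13.

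Fbln2 (chr6:91212460-91272540), an extracellular glycoprotein that joins fibrillin, fibronectin and basement membrane proteins and is a known marker of portal fibroblasts, was read by a pair of kept probes that the platform assigns to different RefSeq transcripts. The probe with the higher mean had log2 values of 10.35, 9.40, 9.85 and 9.95 on knockout arrays, against 9.34, 8.80, 9.66 and 8.76 on control arrays. Only control 3 exceeded a knockout array, namely knockout 2. The mean was 9.89 ± 0.39 on knockout arrays and 9.14 ± 0.43 on control arrays (SD, n = 4 each), a log2 difference of 0.75 with a 95% interval of 0.08 to 1.42 and an adjusted p of 0.635.

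The other Fbln2 probe gave a like mean difference with a different pattern over arrays. Its log2 values were 8.65, 10.48, 10.11 and 9.004 on knockout arrays, against 9.59, 9.05, 6.91 and 9.93 on control arrays, a difference of 0.69 with a 95% interval of -0.85 to 2.23. Here knockout 1 and 4 and control 3 were the lowest arrays of their groups, while on the first probe they were the highest. The distance between knockout 1 and 4 and the other knockout arrays was -1.47 on this probe and 0.53 on the first, and that between control 3 and the other controls was -2.62 and 0.69. Without control 3 the difference between the genotypes on this probe was 0.035, and over the arrays left out in turn it lay between 0.035 and 1.079. The third Fbln2 probe was above background on no array.

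**Figure D2:**
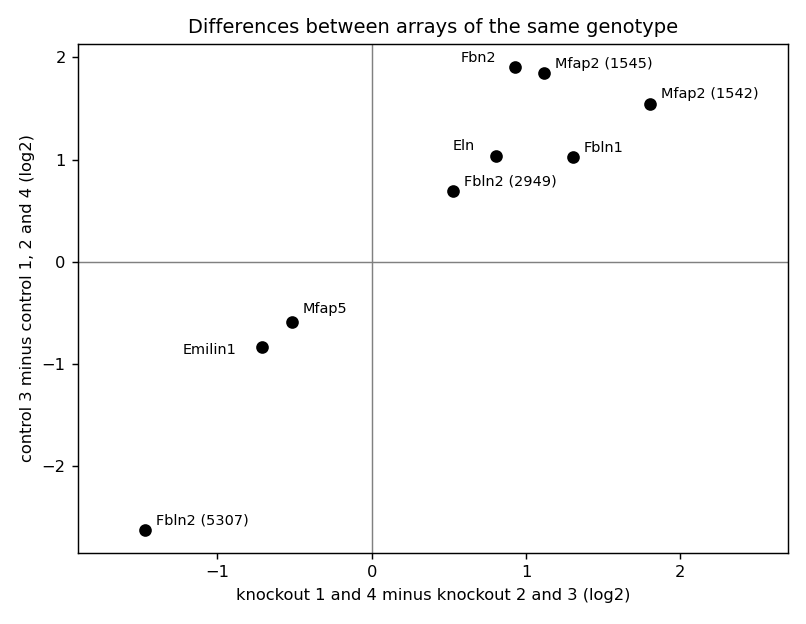
For each kept member probe, the log2 distance of knockout 1 and 4 from knockout 2 and 3 (horizontal axis) and of control 3 from the other controls (vertical axis), with the last 4 digits of the probe number where a gene has more than 1. The 6 probes at the upper right were higher on the arrays with few detected probes in both genotypes, and Mfap5, Emilin1 and 1 Fbln2 probe at the lower left were lower there.

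The same split of the arrays was seen over most probes, with 7.95% of all probes kept lying to opposite sides in the 2 genotypes. In both genotypes 6 of the 9 kept member probes were higher on the arrays with the fewest detected probes and 3 were lower, and over all probes kept the shares were 50.3% and 41.7%, so nothing particular to the members is read from it. Each set holds arrays of both genotypes, but knockout 1 and 4 fall in the set with few detected probes and of the controls only control 3. Genotype and array set are thus crossed without balance, and the set can shift a difference taken over all arrays. That difference lay above both within-set differences for both Mfap2 probes, Eln, Fbln1 and the Fbln2 probe with the higher mean. It lay below both for Mfap5, Emilin1 and the other Fbln2 probe, and between them for Fbn2.

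Fbln1, a fibulin of basement membranes and elastic fibres that binds fibronectin, was bright on 1 of its 3 probes. That probe had log2 values of 9.22, 7.55, 7.85 and 8.78 on knockout arrays, against 8.24, 8.74, 9.31 and 7.88 on control arrays. The groups overlapped, and the log2 difference was -0.19 with a 95% interval of -1.23 to 0.85. It was -0.59 within the 5 arrays with more detected probes.

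A second Fbln1 probe had a lower knockout mean as well, but was near background. It was above background on 0 knockout and 3 control arrays, which kept it out of the fit, with log2 values of 4.84, 5.15, 4.93 and 4.83 on knockout arrays, against 6.31, 6.43, 5.33 and 5.84 on control arrays. The groups did not overlap, and the bound was at least 1.12-fold lower in the knockout cultures. In a fit without the filter its adjusted p was 0.338. The third Fbln1 probe was above background on no array.

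Fbln5, which guides tropoelastin onto microfibrils, was above background on no array, with a lowest detection p of 0.599, and its level is not known from these data. Mfap4, a fibrinogen-domain glycoprotein that binds elastin and collagen, was above background on 2 knockout and 1 control array. Its log2 values were 4.72, 5.64, 5.75 and 4.91 on knockout arrays, against 5.19, 5.72, 4.73 and 4.99 on control arrays, and the groups overlapped.

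Emilin1, a glycoprotein known to restrain the processing of the TGF-beta precursor, had log2 values of 5.39, 6.05, 6.57 and 5.80 on knockout arrays, against 6.19, 6.15, 5.36 and 6.21 on control arrays. It was above background on 2 knockout and 3 control arrays, and the arrays below background were knockout 1 and 4 and control 3. The log2 difference was -0.02 with a 95% interval of -0.78 to 0.73.

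**Figure D3:**
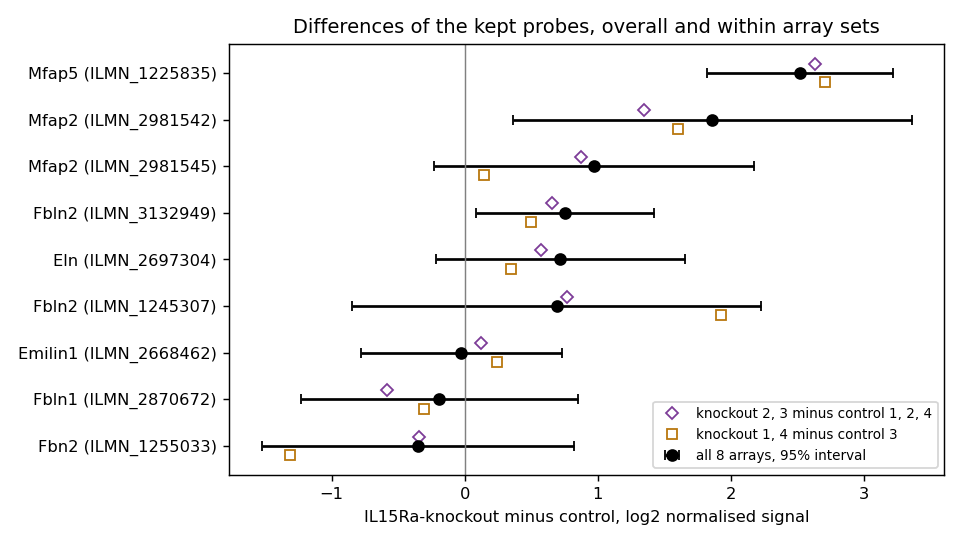
Knockout minus control difference of each kept member probe on the log2 scale over all 8 arrays with its 95% interval (black), within the 5 arrays with more detected probes (purple diamonds) and between knockout 1 and 4 and control 3 (orange squares). Mfap5 lies furthest right with control values not above background, and the interval of 6 of the other 8 probes spans 0.

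Genes that work with these members were counted from lists written with earlier results of these arrays known. The list of elastic fibre assembly outside the members held 30 symbols, with Thsd4 also under its other name Adamtsl6. Of these, 23 had a probe and 14 were kept. Over all 9433 probes kept, 595 had an unadjusted p under 0.05 (limma). Among the 14, 0 passed the limma fit in either direction, with 4 at an unadjusted p under 0.05. The 4 were Thsd4 (ADAMTSL6), a fibrillin-binding promoter of microfibril assembly, with a log2 difference of 1.14, Ltbp1, a latent TGF-beta binding protein, with -0.68, the elastin cross-linking enzyme Loxl1 with 0.40, and Ltbp4, which aids elastin assembly with fibulins, with 0.88. Their adjusted p-values were 0.357, 0.564, 0.635 and 0.786, and the median over the 14 was 0.07. Of these, Ltbp1 had no overlap between the groups, at 9.02 ± 0.37 on knockout arrays and 9.70 ± 0.19 on control arrays (SD, n = 4 each).

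The matrix molecules that bind elastin or fibulins gave 5 kept genes, of which 0 passed and 0 had an unadjusted p under 0.05 (limma). The summed signal of the 8 with a probe lay between 26442.6 and 29831.4 on knockout arrays and between 29993.8 and 31633.8 on control arrays. These ranges did not overlap, while the sums of the other partner lists did. Bgn and Dcn were the brightest genes in the matrix sum, and the groups overlapped for each of the 5 kept genes. All 5 had means below the control, with log2 differences of -0.21 for the small proteoglycan decorin (Dcn), -0.47 for the basement membrane linker Nid1, -0.16 for perlecan (Hspg2), -0.41 for Tnc and -0.03 for Bgn. Of 11 kept receptors and TGF-beta partners 0 passed the limma fit, and the 2 with an unadjusted p under 0.05 were Glb1, whose splice form is the elastin-binding protein, with a difference of 0.50, and the vitronectin receptor subunit Itgb5 with -0.24. Next by p were the ligand Tgfb3 with -0.65 and the receptor Notch1 with -0.32. The list of elastin-degrading proteases, which also held the versican-cleaving Adamts5, gave 9 kept genes. Of these 0 passed and 0 had an unadjusted p under 0.05 (limma). The 4 with the smallest p were the lysosomal elastase Ctss with 0.17, Cela1 with 0.66, Adamts5 with -0.40 and the gelatinase Mmp2 with -0.59. The medians of the 3 lists were -0.21, -0.08 and -0.01.

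**Figure D4:**
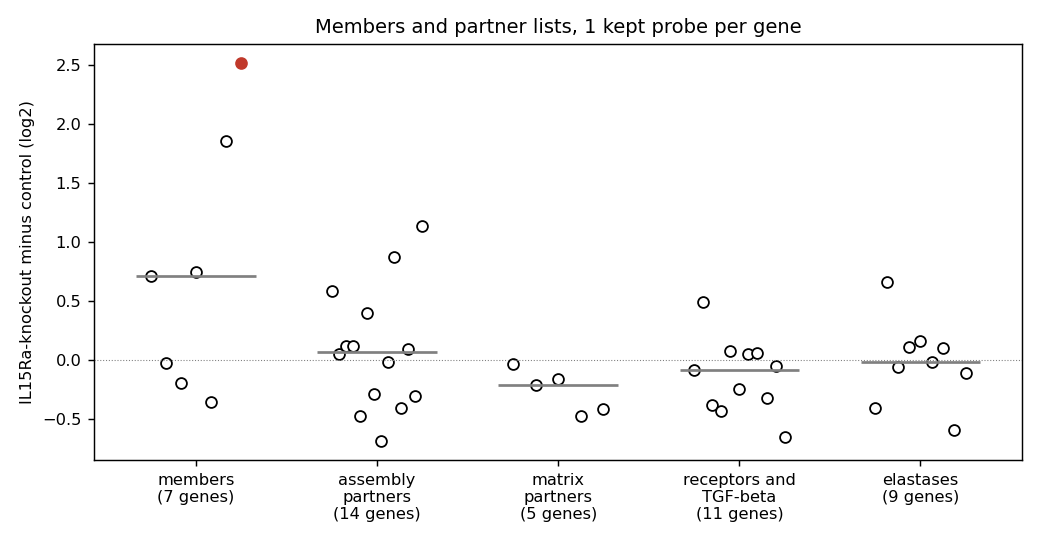
Knockout minus control difference on the log2 scale for the 7 members and the kept genes of 4 partner lists, with 1 probe per gene, grey bars at the median and the filled red point marking an adjusted p under 0.05. Mfap5 is the filled point, and the kept partner genes lie between -0.68 and 1.14.

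Marker lists of other cell types are given beside these values. The summed signal of the 11 mesothelial markers lay between 23860.2 and 32068 on knockout arrays and between 11892 and 18414 on control arrays, without overlap, and 10 of 10 kept markers had a higher knockout mean, as had 53.2% of all probes kept. Of the 10, 6 had an unadjusted p under 0.05 (limma), and 1 passed. This was Pdpn, the podoplanin gene, which rose, at 13.42 ± 0.17 on knockout arrays, against 11.92 ± 0.32 on control arrays (SD, n = 4 each, limma adjusted p = 0.00571), and the uroplakin gene Upk1b had a log2 difference of 0.74 (adjusted p = 0.149). Without Pdpn, a sum added after the data were seen, the list lay between 14309.9 and 20700.6 on knockout arrays and between 8926 and 13434 on control arrays. Krt19 was above background on no array. The part of mesothelial cells in the Mfap5 and Mfap2 values was not tested.

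The stellate cell list was lower in the knockout cultures in its sum, and Reln made up most of that gap. Its 13 genes summed to between 2831 and 3179.7 on knockout arrays and between 4501 and 5629 on control arrays, again without overlap, with 6 of 6 kept markers lower in mean. Of these Reln, the reelin gene, fell, at 9.42 ± 0.34 on knockout arrays, against 11.03 ± 0.35 on control arrays (SD, n = 4 each, limma adjusted p = 0.0289). Desmin (Des) had a log2 difference of -0.13 and Pdgfrb of -0.83, and neither passed. Without Reln the list summed to between 2074.6 and 2399.2 on knockout arrays and between 2312.8 and 3290.7 on control arrays, and the groups overlapped. The part of the stellate cell share in the members' values was not tested.

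Portal and adventitial fibroblasts are known producers of Eln, Fbln2 and Mfap5. The 15 markers of these cells with a probe, which held no member, summed to between 6095 and 7491 on knockout arrays and between 3670.4 and 6236 on control arrays, and the groups overlapped. Of 10 kept markers 7 had a higher knockout mean and 0 passed the limma fit, with 3 at an unadjusted p under 0.05, namely Thy1 with a log2 difference of 0.66, Rspo3 with -1.18 and Msln, also in the mesothelial list, with 0.98. Gli1 and Pi16 were above background on no array, and the part of these cells in the members' values was not tested. The 10 macrophage markers summed to between 35304 and 47209 on knockout arrays and between 35689.9 and 57238 on control arrays. Of 9 kept markers 0 were past the limma threshold and 0 had an unadjusted p under 0.05. The sum was 35304 and 36098 on knockout 1 and 4 and 35690 on control 3. On the other arrays it was 47209 and 45046 in knockout and 52906, 50534 and 57238 in control, without overlap. The endothelial sum was also low on knockout 1 and 4 and control 3 (1462 to 1652, against 2948 to 4624). Within each genotype the mesothelial sum was highest there. The part of macrophages in the members' values was not tested.

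**Figure D5:**
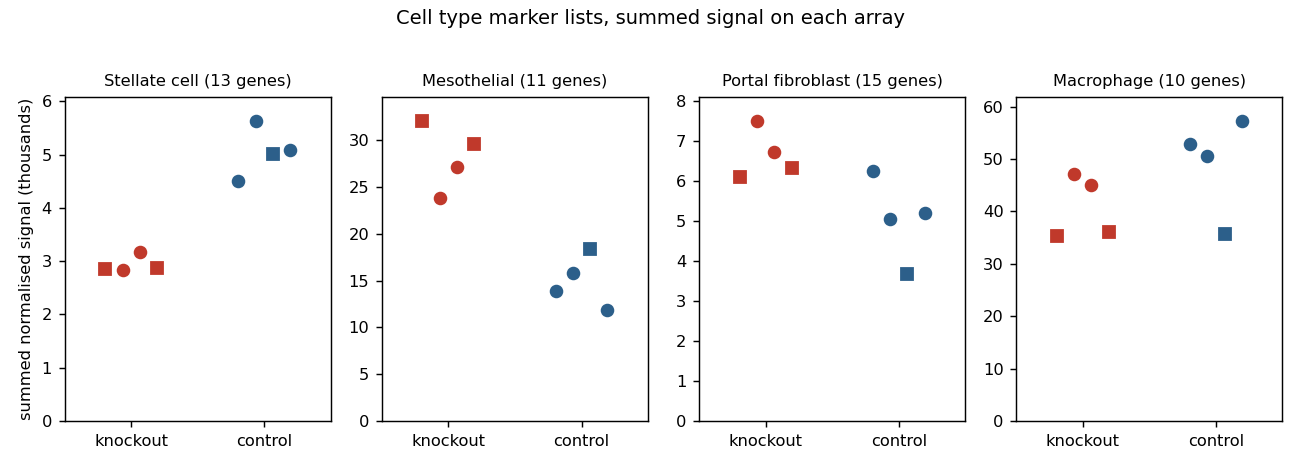
Summed normalised signal, scaled as the axis states, of 4 cell type marker lists on each array, IL15Ra-knockout (red) left of control (blue), with squares for knockout 1 and 4 and control 3. Of the 4 lists drawn, the groups lie apart for the stellate cell list, where they overlap without Reln, and for the mesothelial list, and overlap for the portal fibroblast and macrophage lists.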

How the data were processed

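Total RNA of 8 cultures was read on Illumina MouseRef-8 v2.0 arrays. The deposited table gives, per the file headers, for each probe a detection p-value and an unnormalised linear intensity averaged over beads. A second deposited table holds intensity values quantile normalised by the authors with GenomeStudio, per the series' design text (version 3 per the submitters' processing notes). Arrays were grouped by sample title. Genes were named from the platform annotation, which gave 23978 probes 1 symbol and left 1719 unnamed. Background correction and quantile normalisation used limma 3.58.1 (neqc) under R 4.3.3, with an offset of 16 that draws the folds of dim probes towards 1. The 9433 probes whose detection p was below 0.05 on 4 or more arrays entered lmFit and eBayes (trend on), and p-values were adjusted by Benjamini-Hochberg over all of them at 0.05. A gene with several probes is given by the kept probe with the highest mean, beside its other probes. A bound on a fold divides the bright group's level by a floor in the dim group, which per array is the lowest value above background or, where higher, what the probe itself read. Every bound is taken on group means in the main normalisation and carries no sampling error. Marker sums add the normalised signals of 1 probe per gene. Every member was named with all its probes, and from each partner list the genes past the threshold or else up to 4 with the smallest p, while any other gene was picked with its values in view. The members, lists and tests were chosen with earlier results of these data known. The fit was tested on simulated data, drawn independently for each probe and array. The simulation held no array sets and cannot show how the fit behaves with those seen here. The number of arrays limits the precision.

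Alternatives were cyclic loess, median scaling, the authors' values, an offset of 50, no background correction, no filter, a stricter filter (detection p under 0.01 on every array), robust eBayes, eBayes without trend, array weights (gene-by-gene estimate), the replicate number as a block, the mean over probes, and each array left out. A fit on 5 arrays and one with the count of detected probes as a covariate were added after the data were seen.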

Additional observations from a re-analysis of the deposited data

Results flagged for a closer look

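Emilin1 had 1 control array far from the other controls. Control 3 lay at 5.36 on the log2 scale, below background, while the other 3 controls lay between 6.15 and 6.21. The gap was 0.935 of the whole range of the group, above the 95% critical value of Dixon's test for 4 samples. Control 3 had the fewest probes above background of the 8 arrays. Of the 18 groups of 4 values examined for the 9 kept probes this was the 1 so marked, and chance marks about 5% of groups.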

How the results depend on the processing

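Against 50 called probes (22 higher, 28 lower) and 1 called member probe, median scaling gave 91 (60 higher, 31 lower) and 0, cyclic loess 95 (52 higher, 43 lower), a detection p under 0.01 on all arrays 17 and 0, with 2 genes above 0 among the 3 left, array weights 805 and 4, the 5-array fit 168 and 1, and the detected-probe covariate 670 and 5. Leaving out each array in turn gave 22 to 125 called probes, with 125 without control 3 and 22 to 35 without any other array, and 1 member probe each time. Deviations of same-numbered samples correlated at -0.66, 0.60, -0.75 and -0.82. Over all pairs the sign was positive within an array set and negative across sets, so these values cannot show whether replicate numbers pair the samples. With the replicate block 3 probes and 0 member probes were called, with Mfap5 at a limma adjusted p of 0.281. The cause of these changes was not tested, except that the 0.01 filter removes Mfap5. Mfap5 kept its direction in all 20 alternatives (1.20 to 2.89), as did the probes of Eln, Fbln2 and Mfap2, although the dimmer Fbln2 probe was at 0.035 without control 3, against 0.69 over all arrays. Emilin1 turned to 0.22 with array weights, 0.14 on 5 arrays, 0.018 with the covariate and, without each array in turn, lay between -0.25 and 0.17, above 0 without knockout 1, knockout 4, control 1, control 2 or control 4 (0.17, 0.03, 0.04, 0.03 and 0.05). Without each array in turn Fbln1 lay between -0.48 and 0.076, above 0 without knockout 2 or control 3 (0.059), and Fbn2 between -0.63 and 0.13, above 0 without control 3. None of these turned values passed. Over the kept probes of a gene, the mean difference was 1.42 for Mfap2 and 0.72 for Fbln2. The dim probes (Fbn2, Emilin1, Mfap4, Fbln5) lie near background, where the offset draws folds towards 1. How large a difference could be detected at that level was not tested.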

Other observations

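Markers of further cell types gave the following values. The 11 smooth muscle and mural markers had 6 kept genes, 4 with a higher knockout mean and 0 past the limma threshold, with 2 at an unadjusted p under 0.05, the contractile genes Lmod1 (log2 difference 0.97) and Actg2 (0.92). All 6 kept endothelial markers had a lower knockout mean and 0 passed, with 2 at an unadjusted p under 0.05, Lyve1 (-1.54) and Stab2 (-0.66), while Cdh5 and Kdr were above background on no array. All 4 kept lymphocyte markers had a lower knockout mean and 0 passed, with 1 at an unadjusted p under 0.05, the T cell receptor gene Cd3d. It was above background on 0 knockout and 4 control arrays and at least 1.69-fold lower. Cd3d passed the filter only through the control arrays, so nothing is read from its p-value.

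Of 9 hepatocyte markers with a probe, Alb, Apoa1, Cyp2e1, Cps1, Fgb and Tat were above background on no array, and the 2 kept, Ttr and Serpina1a, had log2 differences of 0.86 and 0.19. The other one, the transcription factor gene Hnf4a, was not kept and was above background on 3 knockout and 0 control arrays, at least 1.13-fold higher in the knockout cultures, without overlap. The dendritic list kept 1 gene of 8, Itgax, with a difference of -1.14, and the cholangiocyte list kept 1 of 4, Krt7, with 0.57, and in these 3 lists 0 kept genes passed the limma fit and 0 had an unadjusted p under 0.05. The summed dendritic signal lay between 135.6 and 173.2 on knockout arrays and between 186.2 and 357.001 on control arrays. The cholangiocyte sum lay between 308.5 and 389.6 on knockout arrays and between 191.8 and 290.1 on control arrays. Both were without overlap, while the smooth muscle, endothelial, lymphocyte and hepatocyte sums overlapped. Above background on no array were 5 of the 8 dendritic and 3 of the 4 cholangiocyte markers, so neither sum speaks for its whole list.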
